A study of Homo sapiens with 8 samples.

Results

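The bone morphogenetic protein (BMP) pathway was followed through its receptors, its SMAD proteins and its feedback inhibitors in SKBR3, a HER2-amplified human breast cancer cell line. The 10 genes SMAD6, SMAD7, SMAD9, BAMBI, SKIL, SMURF1, SMURF2, BMPR1A, BMPR2 and ACVR1 were selected by their symbols in the platform annotation, with earlier results of these arrays known, among them the low SMAD7 values. Their values are therefore given as a description, with no test. Of the 10 genes, 9 were measured, by 29 probe sets of the 54613 on the array and among 19775 named genes. BMPR1A, a type I BMP receptor, was not analysed here.

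The study has 8 arrays of total RNA, 1 for each condition, each from SKBR3 cells kept in 10% charcoal-stripped serum for 4 h before a treatment of 3 h. Cells were left untreated or were given 0.1% ethanol (the vehicle of estradiol), 1e-06 M BSA (the carrier), 1e-06 M estradiol, 1e-06 M E2-BSA, 1e-05 M G15, or 1e-06 M E2-BSA combined with 1e-05 M of either ICI or G15. E2-BSA is estradiol coupled to bovine serum albumin, G15 is an antagonist of the membrane estrogen receptor GPER, and ICI is named in the labels by these letters alone. SKBR3 is 1 line, and no condition was repeated, so the arrays give no replicate error and no p-value. Each probe set was deposited as log2 values centred near its own middle, with at most 4 arrays above 0 and at most 4 below. A value thus says how an array stands among the others, not how abundant a transcript is, and the identity of the cells could not be checked against markers. The log base was read from the values and is not stated; with base e all folds would be larger. A lower value can mean less transcript in each cell or fewer cells that hold it, which RNA from a whole culture cannot tell apart.

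BMPs bind a pair of type I and type II receptor kinases, which phosphorylate SMAD1, SMAD5 and SMAD9. These proteins enter the nucleus with SMAD4 and switch on target genes, of which the ID genes are the best known. The pathway also switches on its own brakes. SMAD6 and SMAD7 are inhibitory SMADs that occupy the receptors, BAMBI is a receptor-like protein without a kinase, SKIL (SnoN) is a nuclear corepressor of SMAD complexes, and SMURF1 and SMURF2 are ubiquitin ligases that mark SMADs and receptors for degradation. The levels of SMAD6, SMAD7 and the ID genes are widely used as readouts of BMP signalling.

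The promoters of 4 feedback inhibitors are shown because these genes gave the largest differences below or lay low together. Each is the 250 bases before the gene's outermost annotated start, from RefSeq on GRCh38.p14, and all 9 measured genes had at least 1 such window. SMAD6 lies at chr15:66701986-66702235 on the plus strand, SMAD7 at chr18:48950966-48951215 on the minus strand, SKIL at chr3:170357465-170357714 on the plus strand and BAMBI at chr10:28677271-28677520 on the plus strand. Capitals mark matches, on either strand, to 4 short sequences known to be bound by SMAD proteins.
SMAD6: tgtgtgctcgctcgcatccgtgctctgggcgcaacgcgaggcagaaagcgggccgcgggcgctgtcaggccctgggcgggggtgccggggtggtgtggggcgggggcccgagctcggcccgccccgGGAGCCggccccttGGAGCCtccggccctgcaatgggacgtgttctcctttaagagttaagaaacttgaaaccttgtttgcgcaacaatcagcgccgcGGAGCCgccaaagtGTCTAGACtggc
SMAD7: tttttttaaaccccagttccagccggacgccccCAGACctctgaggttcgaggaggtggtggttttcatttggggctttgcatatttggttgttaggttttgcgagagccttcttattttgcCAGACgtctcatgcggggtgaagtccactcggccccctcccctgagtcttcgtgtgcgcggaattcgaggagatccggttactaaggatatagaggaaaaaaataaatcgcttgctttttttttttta
SKIL: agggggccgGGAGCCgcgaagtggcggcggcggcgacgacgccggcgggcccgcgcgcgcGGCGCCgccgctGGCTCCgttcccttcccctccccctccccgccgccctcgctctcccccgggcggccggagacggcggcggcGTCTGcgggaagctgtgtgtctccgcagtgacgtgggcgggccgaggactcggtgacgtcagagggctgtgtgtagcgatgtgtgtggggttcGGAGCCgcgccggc
BAMBI: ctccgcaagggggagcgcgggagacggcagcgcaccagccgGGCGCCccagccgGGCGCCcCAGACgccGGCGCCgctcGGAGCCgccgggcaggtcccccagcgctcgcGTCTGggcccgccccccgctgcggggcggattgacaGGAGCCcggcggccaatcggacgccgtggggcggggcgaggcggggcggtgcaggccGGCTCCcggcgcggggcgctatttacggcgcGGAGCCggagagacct

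The palindrome GTCTAGAC, the classical SMAD binding sequence, was found in SMAD6 alone among 13 windows of the measured genes, from 12 to 5 bases before the start. It was present in 0.182% of 35116 promoter windows of the same length. The short SMAD element CAGAC, which the palindrome does not contain, occurred in 7 of the 13 windows and in 38.0% of all windows. The GC-rich sequence GGCGCC was in 4 of the 13 and in 16.4% of all, and GGAGCC in 8 of the 13 and in 30.6% of all. BAMBI held GGCGCC at 3 places and SKIL at 1, while SMAD7 held CAGAC at 2 places in the window shown. These matches describe the letters in each window and say nothing about binding in these cells.

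SMAD7, the inhibitory SMAD that blocks both BMP and TGF-beta receptors, was low on 3 of the 8 arrays. It stood at -0.61 with estradiol, at -0.66 with E2-BSA plus ICI and at -0.53 with E2-BSA plus G15. On the other arrays it stood at -0.0057 in untreated cells, 0.18 with BSA, 0.35 with ethanol, 0.22 with E2-BSA and 0.00 with G15. The 3 lowest arrays lay within 0.053 and 0.085 of their neighbours in the order, and a gap of 0.52 separated them from the untreated array. As a guide to size, the difference BSA minus untreated had an SD of 0.166 over all genes. SMAD7 rests on 1 probe set.

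SMAD6, the inhibitory SMAD that acts mainly on BMP receptors, had the same 3 lowest arrays in its gene mean, at -0.26 with estradiol, -0.33 with E2-BSA plus ICI and -0.29 with E2-BSA plus G15. The other arrays lay at 0.061 (untreated), 0.041 (BSA), 0.019 (ethanol), -0.049 (E2-BSA) and 0.18 (G15). The gap to the next array was 0.21. The low values came mostly from 1 of its 4 probe sets, 207069_s_at. That probe set stood at -0.84, -0.96 and -0.88 on the estradiol array and those of E2-BSA with ICI and with G15, and between -0.0078 and 0.35 on the other 5. A second probe set, 213565_s_at, was lowest on the E2-BSA plus ICI array, at -0.40, and lay at -0.13 with estradiol and -0.10 with E2-BSA plus G15. The remaining pair did not follow: 209886_s_at was highest with G15 at 0.50, and 209887_at stood at -0.092 with estradiol and 0.10 with E2-BSA plus ICI. The correlation of 207069_s_at with 213565_s_at over the 8 arrays was 0.79, and with the others 0.14 and 0.15. The suffix _s_at marks probe sets that can match several transcripts. Measured by 209887_at alone, without them, the SMAD6 difference turned sign in 6 of the 16 comparisons. E2-BSA plus ICI minus E2-BSA was then 0.30 in place of -0.28, estradiol minus E2-BSA 0.11 in place of -0.21 and E2-BSA plus G15 minus E2-BSA 0.018 in place of -0.24. Estradiol minus untreated stayed below 0, at -0.29 in place of -0.33.

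SMAD9, also called SMAD8, is a BMP receptor-regulated SMAD and itself a known BMP target. Its gene mean was -0.31 with estradiol and -0.32 with E2-BSA plus ICI, but -0.040 with E2-BSA plus G15. The untreated, BSA and ethanol arrays lay at 0.024, -0.041 and -0.079, E2-BSA at 0.10 and G15 at 0.26. Its probe sets opposed each other, with a correlation of -0.62 over the 8 arrays. Probe set 227719_at ran from -0.84 (E2-BSA plus ICI) through -0.61 (estradiol) and -0.28 (E2-BSA plus G15) to 0.35 (E2-BSA) and 0.53 (G15), with -0.16 on ethanol, 0.00 on untreated and 0.030 on BSA. The other, 206320_s_at, ranged only from -0.15 to 0.20.

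**Figure D1:**
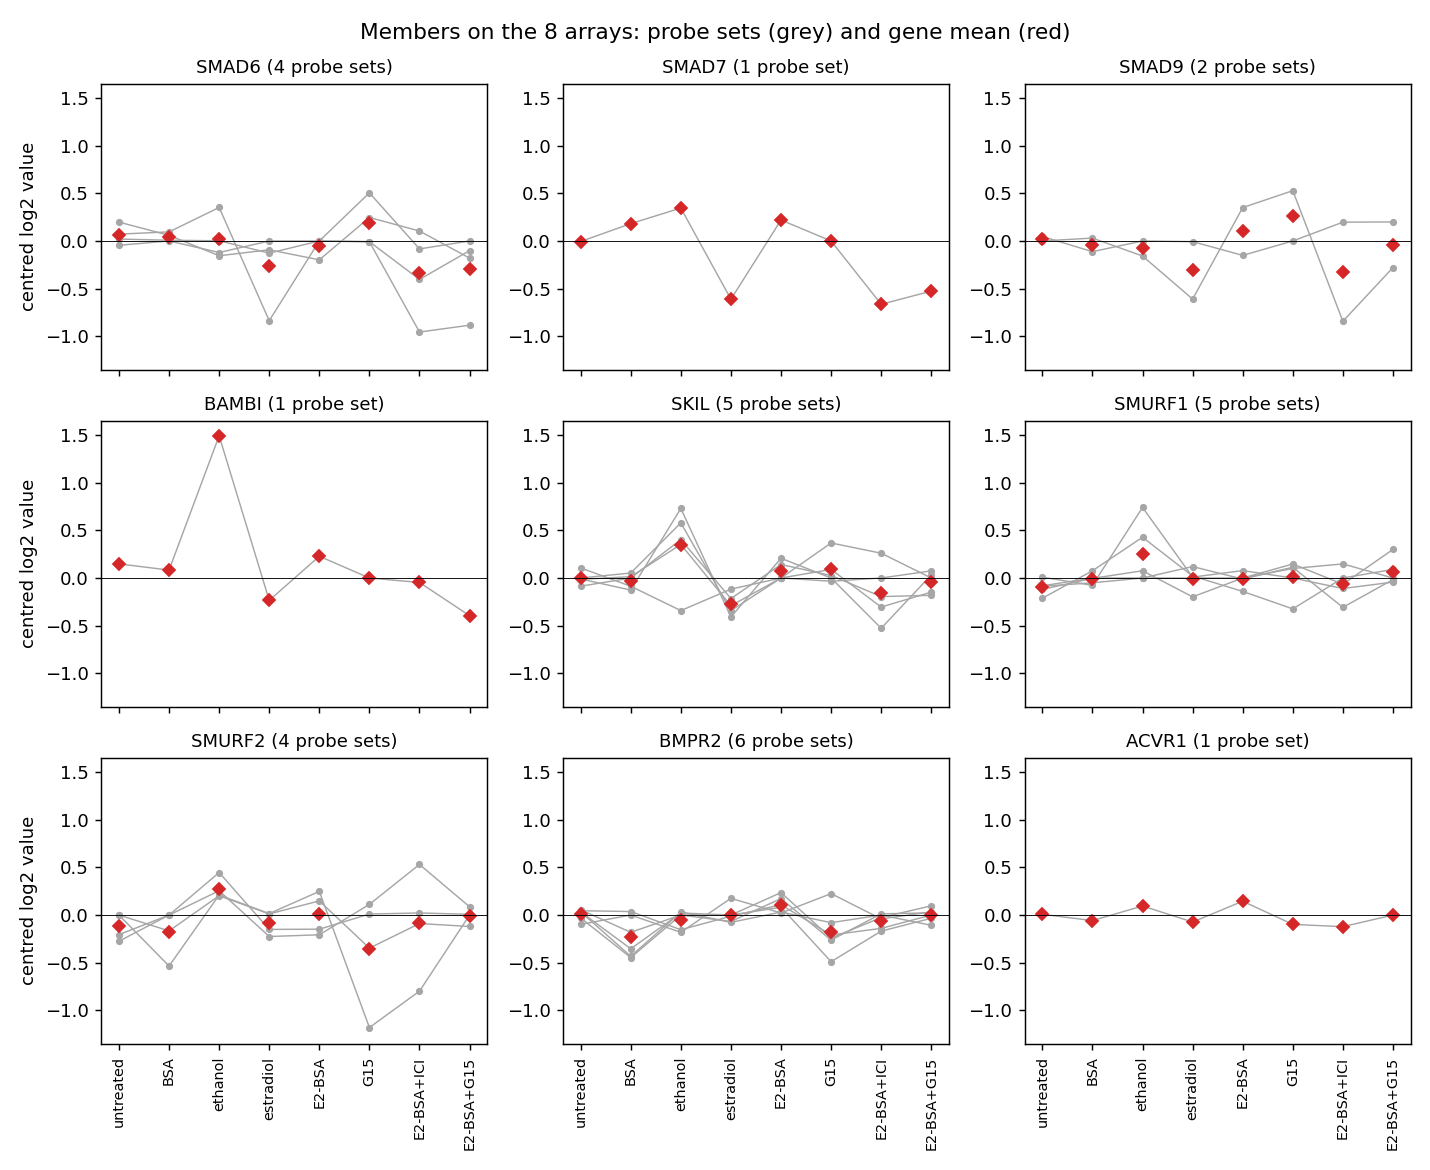
Centred log2 values of the 9 measured genes on the 8 arrays, 1 panel a gene, with grey points for probe sets (lines join the separate arrays) and red diamonds for the gene mean; no error bars exist with 1 array per condition. SMAD7 lies at -0.61, -0.66 and -0.53 on the estradiol array and those of E2-BSA with ICI and with G15, and BAMBI at 1.49 on the ethanol array.

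BAMBI, the pseudoreceptor, was set apart by the ethanol array. It stood there at 1.49, against 0.15 in untreated cells, 0.083 with BSA, 0.23 with E2-BSA and 0.00 with G15. The low end was E2-BSA plus G15 at -0.40, followed by estradiol at -0.23 and E2-BSA plus ICI at -0.047. The gap between the ethanol array and the next was 1.26, whereas the other 7 arrays spanned 0.62. BAMBI rests on 1 probe set.

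SKIL, the SMAD corepressor, was highest with ethanol, at 0.34, and lowest with estradiol, at -0.27. The other arrays lay at -0.15 (E2-BSA plus ICI), -0.045 (E2-BSA plus G15), -0.029 (BSA), -0.00078 (untreated), 0.070 (E2-BSA) and 0.090 (G15). Of its 5 probe sets 4 were highest with ethanol, with pairwise correlations from 0.75 to 0.94 over the 8 arrays. Of these 4, 206675_s_at was lowest with E2-BSA plus ICI, at -0.53, and the other 3 with estradiol. All 5 were below 0 with estradiol, from -0.41 to -0.12. The fifth, 232379_at, ran against the others, with -0.34 on ethanol and 0.37 on G15.

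SMURF1 and SMURF2, the ubiquitin ligases, were both highest with ethanol. SMURF1 lay at 0.25 with ethanol and between -0.098 (untreated) and 0.066 (E2-BSA plus G15) on the other 7 arrays. On ethanol its probe set 212666_at stood at 0.74 and 232665_x_at at 0.43, with the other 3 between 0.00 and 0.076. SMURF2 stood at 0.28 with ethanol, at -0.35 with G15, at -0.18 with BSA and between -0.12 and 0.010 on the other 5 arrays. The G15 value came mostly from 232020_at, at -1.18, which was also low with E2-BSA plus ICI (-0.80) and BSA (-0.53) and at 0.00 with E2-BSA plus G15. Probe set 227489_at was lowest with G15 too, at -0.35, while 205596_s_at (0.011) and 230820_at (0.11) lay above 0 there. On ethanol all 4 SMURF2 probe sets lay above 0, from 0.20 to 0.45.

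The receptors spanned the smallest ranges over the 8 arrays, though BMPR2 (0.338) lay close to SMURF1 (0.347). Without the ethanol array SMURF1 spanned the smallest range, 0.16. BMPR2, the type II BMP receptor, was lowest with BSA at -0.23 and G15 at -0.18, and lay at -0.060 with E2-BSA plus ICI, -0.047 with ethanol, 0.0020 with E2-BSA plus G15, 0.0032 with estradiol, 0.0065 in untreated cells and 0.11 with E2-BSA. On the BSA array 4 of its 6 probe sets were below -0.18, down to -0.45, and the remaining pair stood at 0.00 and 0.037. ACVR1 (ALK2), a type I receptor with 1 probe set, spanned 0.27, from -0.12 (E2-BSA plus ICI) to 0.145 (E2-BSA). Over all 8 arrays that was the smallest range of the 9 genes. Over the 8 arrays the members had a median range of 0.59 beside 0.34 for all genes, and without the ethanol array 0.36 beside 0.28. Since the genes were chosen with results known, that difference supports nothing.

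In the comparisons a difference is the log2 value of 1 array minus another, and a gene counts as apart at 1.5-fold or more in either direction (0.585 on the log2 scale). Several comparisons share an array, so their values are set side by side and not as independent evidence. Free estradiol was set against untreated cells, a comparison that holds the hormone together with its ethanol vehicle. Of the 9 members 1 was apart, SMAD7 at -0.61 (1.52-fold lower), beside 0.177% of all genes. Below that size lay BAMBI at -0.38, SMAD6 at -0.33, SMAD9 at -0.33 and SKIL at -0.27. SMURF1 (0.089), SMURF2 (0.033), BMPR2 (-0.0034) and ACVR1 (-0.081) stood close to the untreated array. The median over the members was -0.27, and over all genes 0.00. Of the 29 probe sets 19 were lower and 10 higher.

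The same array was set against the other hormone-free arrays. Against BSA 1 of 9 members was apart, beside 0.425% of all genes, with SMAD7 at -0.79, BAMBI at -0.32, SMAD6 at -0.30, SMAD9 at -0.27 and SKIL at -0.25. BMPR2 was 0.23 above BSA, where the BSA array held its lowest value. Against the ethanol vehicle 3 of 9 were apart, all lower, beside 3.40% of all genes. They were BAMBI at -1.73 (3.31-fold), SMAD7 at -0.96 (1.94-fold) and SKIL at -0.62 (1.54-fold). For all 3 genes the ethanol array was itself the highest of the 8. Compared with untreated cells, 3.70% of all genes were apart on the ethanol array and 0.177% on the estradiol array, which holds the same vehicle. BAMBI differed from untreated by 1.34 with ethanol and by -0.38 with estradiol. Why the wide change of the ethanol array was not seen with estradiol was not tested. Without probe sets of shared sequence (suffix _s_at or _x_at) SKIL stood at -0.49 and was no longer apart. SMAD6 differed from ethanol by -0.28, or by 0.063 when measured by 209887_at alone.

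The vehicle and the carrier were each compared with untreated cells. With ethanol 1 of 9 members was apart, BAMBI at 1.34 (2.54-fold higher), and 3.70% of all genes were, the largest share of the 16 comparisons. SMURF2 (0.40), SMURF1 (0.35), SMAD7 (0.35) and SKIL (0.34) lay higher by less than 1.5-fold, while SMAD6 (-0.042), SMAD9 (-0.10), BMPR2 (-0.054) and ACVR1 (0.087) were close to untreated. The share of this wide change of the ethanol array in the BAMBI value was not tested, and with the arrays forced to 1 distribution by quantile normalization BAMBI was 0.44 higher and no longer apart. With BSA 0 of 9 members were apart, beside 0.556% of all genes, and the members lay between -0.24 (BMPR2) and 0.19 (SMAD7).

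With coupled estradiol alone SMAD7 was not low. On E2-BSA minus BSA 0 of 9 members were apart, beside 1.0% of all genes. SMAD7 differed by 0.038, SMAD6 by -0.090, SMAD9 by 0.14 and BMPR2, low on BSA, by 0.34. On E2-BSA minus untreated 0 of 9 were apart too, beside 0.349% of all genes, with SMAD7 at 0.23 and SMAD6 at -0.11. In the direct comparison of the 2 forms, each at a stated 1e-06 M, estradiol minus E2-BSA had 1 of 9 members apart, beside 0.384% of all genes. SMAD7 differed by -0.83 (1.78-fold lower with the free hormone), BAMBI by -0.46, SMAD9 by -0.41, SKIL by -0.34, ACVR1 by -0.22 and SMAD6 by -0.21. The median over the members was -0.22, and over all genes -0.011. Free estradiol was given in ethanol, and the labels name no vehicle for E2-BSA. With 1 array each no interval can be given.

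**Figure D2:**
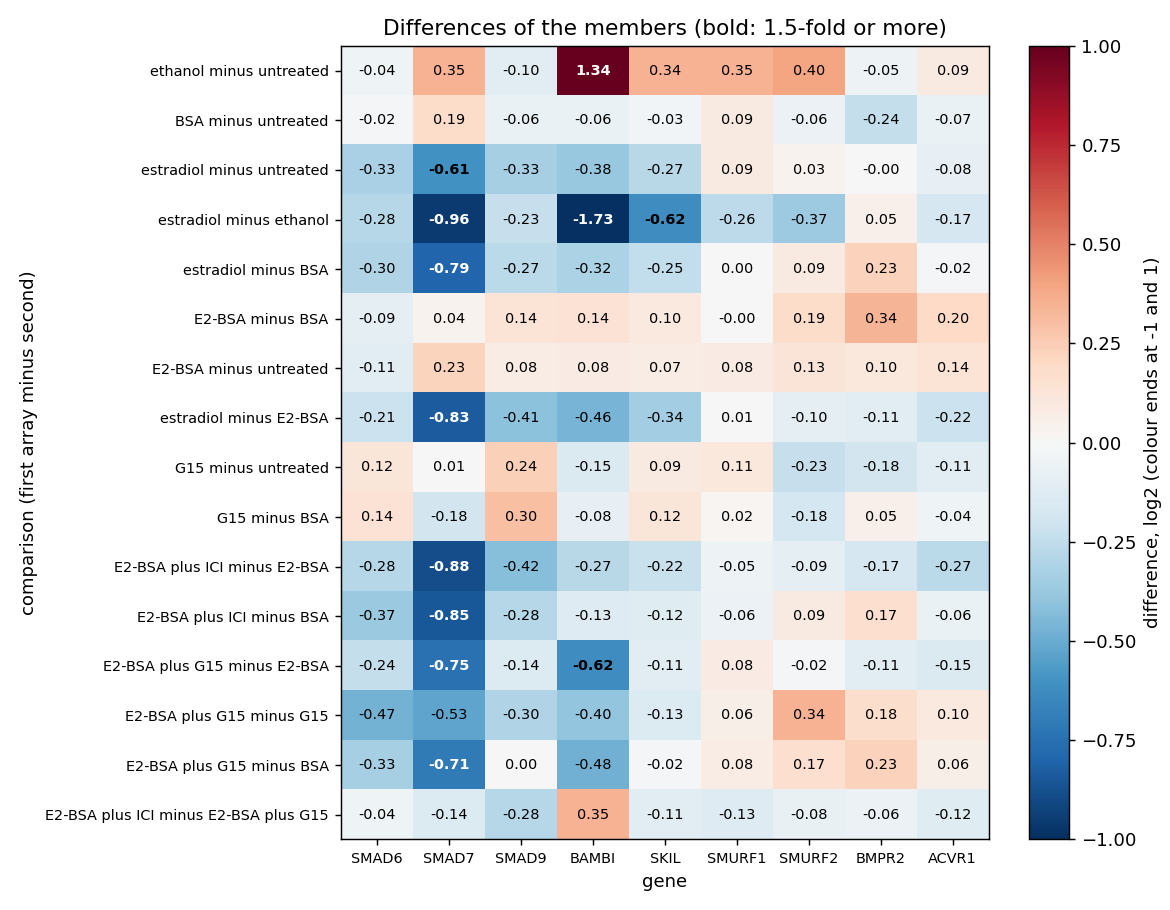
Differences of the 9 measured genes (columns) in the 16 comparisons (rows), on the log2 scale as the first array minus the second, with blue lower and red higher, colour limited to 1 in either direction and bold numbers at 1.5-fold or more. SMAD7 is bold and lower in 8 of the comparisons, and BAMBI is 1.34 on ethanol minus untreated.

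ICI and G15 were each added to E2-BSA to show what they alter. With ICI added, 1 of 9 members was apart from E2-BSA alone, beside 1.60% of all genes, namely SMAD7 at -0.88 (1.85-fold lower). All 9 members lay below E2-BSA alone, as did 46.8% of all genes. The E2-BSA array itself lay above untreated cells for 8 of the 9 members and above BSA for 7. Against E2-BSA alone SMAD9 differed by -0.42, SMAD6 by -0.28, BAMBI by -0.27, ACVR1 by -0.27, SKIL by -0.22 and BMPR2 by -0.17. The median over the members was -0.27, beside 0.0078 for all genes. Probe set 207069_s_at of SMAD6 differed by -0.96 and 227719_at of SMAD9 by -1.19. The other SMAD6 probe sets differed by -0.40, -0.083 and 0.30, and the other SMAD9 probe set, 206320_s_at, by 0.35. Against BSA 1 of 9 members was apart, beside 0.743% of all genes, with SMAD7 at -0.85, SMAD6 at -0.37 and SMAD9 at -0.28. There BMPR2 (0.17) and SMURF2 (0.092) lay higher.

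With G15 alone SMAD7 stood close to untreated cells. On G15 minus untreated 0 of 9 members were apart, beside 0.531% of all genes, with SMAD7 at 0.0057, SMAD9 at 0.24, SMAD6 at 0.12 and SMURF2 at -0.23. On G15 minus BSA 0 of 9 were apart, beside 0.374% of all genes. E2-BSA plus G15 minus E2-BSA had 2 of 9 members apart, beside 0.794% of all genes, SMAD7 at -0.75 (1.68-fold lower) and BAMBI at -0.62 (1.54-fold lower). SMAD6 differed by -0.24 in its mean and by -0.88 in 207069_s_at, while its other probe sets differed by -0.10, 0.00 and 0.018.

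Against G15 alone, E2-BSA plus G15 had 0 of 9 members apart, beside 0.491% of all genes. SMAD7 (-0.53) and SMAD6 (-0.47) lay below that size, with BAMBI at -0.40 and SMAD9 at -0.30, and SMURF2, low with G15 alone, was 0.34 higher. SMAD7 thus differed by 0.23 when E2-BSA was compared with untreated cells and by -0.53 when it was given on top of G15. Against BSA, E2-BSA plus G15 had 1 of 9 members apart, beside 0.394% of all genes, SMAD7 at -0.71. Between the combinations (ICI minus G15, both with E2-BSA) 0 of 9 members were apart, beside 0.531% of all genes. SMAD7 (-0.14) and SMAD6 (-0.043) differed little there, BAMBI was 0.35 higher and SMAD9 0.28 lower with ICI.

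Other parts of the pathway were read from gene lists. Of 5 other SMADs (SMAD1 to SMAD5) none was apart in any of the 16 comparisons, beside 0.177% to 3.70% of all genes. At such shares a count of 0 of 5 is not particular to these genes. SMAD1 and SMAD5, which carry the BMP signal, differed from untreated by -0.0082 and 0.044 with estradiol. Of 23 measured BMP, GDF, activin and TGF-beta ligands 1 was higher on ethanol minus untreated, beside 3.70% of all genes apart. It was the activin subunit gene INHBA, at 2.27. None of the ligands was apart on estradiol minus untreated or with ICI or G15 added to E2-BSA, beside 0.177%, 1.60% and 0.794% of all genes. Of 15 other receptors and co-receptors 1 was apart in 1 comparison, E2-BSA plus G15 minus G15, beside 0.491% of all genes. It was HJV, a BMP co-receptor, at -0.63. Of 16 secreted antagonists SOSTDC1 was 0.68 higher on estradiol minus E2-BSA, beside 0.384% of all genes apart. SOSTDC1 was 0.64 higher on E2-BSA plus ICI minus E2-BSA, beside 1.60%, with its lowest value, -0.48, on E2-BSA alone. Of 24 other intracellular regulators 3 were higher on ethanol minus untreated, the corepressors TGIF2 at 1.13 and TGIF1 at 0.69 and the ubiquitin ligase RNF111 at 0.68, beside 3.70% of all genes apart. On estradiol minus ethanol 2 of the 24 were lower, TGIF2 at -0.90 and RNF111 at -0.72, and 1 was higher, TOB1 at 0.64, beside 3.40%. SKI, the close relative of SKIL, stood at -0.64 on the BSA array. Compared with BSA it was 0.67 higher with estradiol and 0.60 higher with E2-BSA, beside 0.425% and 1.0% of all genes apart.

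The ID genes, among the BMP targets, were lower on the arrays with low SMAD7, while most of the list was not apart. Of 19 targets 5 were lower on estradiol minus untreated, beside 0.177% of all genes apart, led by ID1 (-2.03), ID2 (-1.45), ID4 (-0.83) and ID3 (-0.72), with 0 higher and a list median of -0.12 beside 0.00 for all genes. The fifth was the homeobox gene DLX3 (-0.65), named after its value was seen. The whole list, the ID genes included, was chosen with earlier results of these arrays known. Its counts are therefore a description and support nothing. With ICI added to E2-BSA 5 of 19 were lower, beside 1.60% of all genes apart, with ID1 at -1.97. With G15 added 3 of 19 were, beside 0.794%, with ID1 at -1.74. ID2 fell just short of the limit there, at -0.582 on E2-BSA plus G15 and 0.0027 on E2-BSA. Against G15 alone and against BSA the same array had 5 of 19 lower, beside 0.491% and 0.394% of all genes apart. ID2 was among them, at -0.63 and -0.66. On E2-BSA minus untreated and on G15 minus untreated 0 of 19 were apart, beside 0.349% and 0.531% of all genes. The list of 12 measured TGF-beta targets, of which SKI and PMEPA1 also stand among the regulators, had its largest counts with the ethanol array. On ethanol minus untreated 4 of 12 were higher, beside 3.70% of all genes apart, the matrix protein gene CCN2 (1.60), the transcription factor gene JUNB (1.35), the cell-cycle inhibitor CDKN1A (1.32) and the transcription factor gene SNAI1 (1.18). On estradiol minus ethanol 5 of 12 were lower, beside 3.40%, led by CDKN1A (-1.97), JUNB (-1.63), CCN2 (-1.49) and SNAI1 (-1.01). Away from ethanol, CDKN1A (-0.65) was the 1 target lower on estradiol minus untreated, beside 0.177% of all genes apart. CCN2 (-1.01) and CDKN1A (-0.64) were the 2 lower with G15 added to E2-BSA, beside 0.794% of all genes apart. With ICI added 0 of 12 were apart, beside 1.60%. CDKN1A was also lower on estradiol minus BSA (-0.84) and minus E2-BSA (-0.71). The ICI combination minus BSA gave -0.64, and the G15 combination gave -0.89 minus G15 and -0.78 minus BSA. CDKN1A was thus lowest on the arrays with low SMAD7, at -0.71 with estradiol, -0.51 with the ICI combination and -0.64 with the G15 combination. On the other arrays it lay between -0.061 (untreated) and 1.26 (ethanol).

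**Figure D3:**
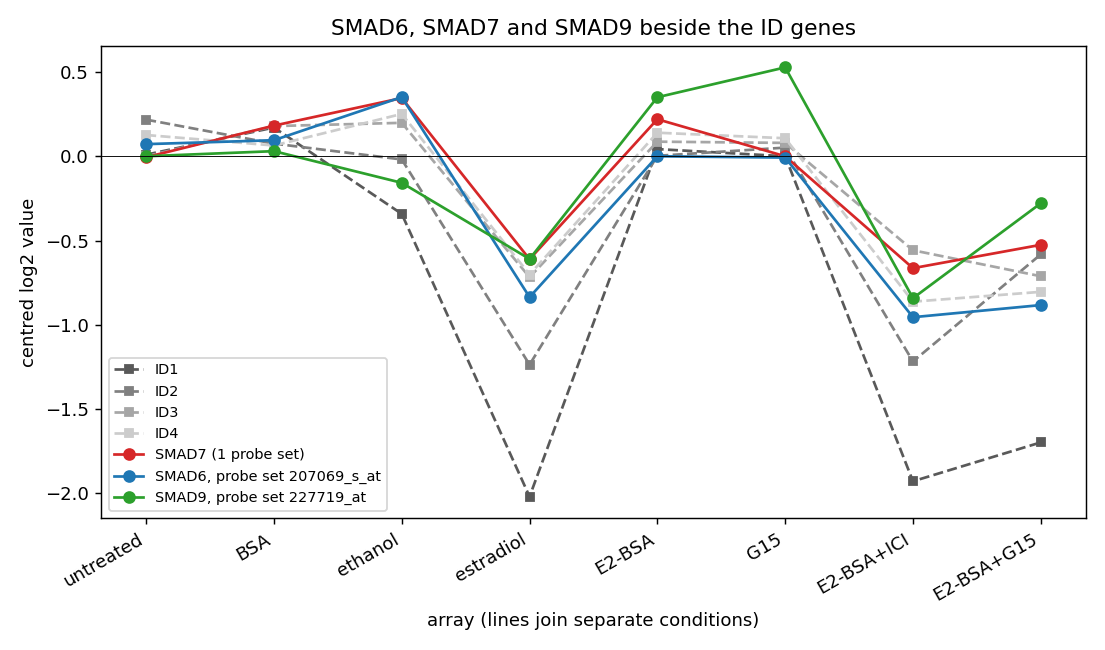
Centred log2 values of SMAD7, of SMAD6 probe set 207069_s_at and of SMAD9 probe set 227719_at (solid lines) and of ID1 to ID4 as gene means (dashed grey) on the 8 arrays; the lines only join separate conditions. The arrays of estradiol and of E2-BSA with ICI or with G15 hold the 3 lowest values of each line drawn, from -2.02 for ID1 to -0.28 for SMAD9. The SMAD6 and SMAD9 probe sets drawn are those of largest range, and SMAD9 probe set 206320_s_at, not drawn, stood at 0.20 on both combinations. Of the SMAD6 probe sets not drawn, 213565_s_at was below 0 on these 3 arrays. On the same arrays, in the order named, 209886_s_at stood at 0.00, -0.083 and 0.00, and 209887_at at -0.092, 0.10 and -0.18.

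The genes most like SMAD7 were found by Pearson correlation of gene values over the 8 arrays, among 4259 genes with a range of at least 0.5. They were the homeobox gene HOXC13 (0.97), ID4 (0.97), ID3 (0.96), the interferon response factor gene IRF9 (0.96) and ID1 (0.93). For SMAD6 they were JSRP1 (0.95), CACNG3 (0.94), ID1 (0.93), TEX48 (0.93) and ID4 (0.92). SMAD6 and SMAD7 correlated with each other at 0.84, SMAD6 and SMAD9 at 0.80, SMAD7 and SKIL at 0.81, and BAMBI and SKIL at 0.84, with the ethanol array the highest for both. BMPR2 correlated with SMAD6 at -0.41 and with SMAD7 at -0.16. These values describe 8 conditions with 1 array each, and all genes share those arrays and their scaling.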

How the data were processed

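Transcript levels were measured in SKBR3 cells on 8 Affymetrix arrays, 1 per condition, each placed in its group from its title. Per the labels' protocols, total RNA was labelled with biotin; for probe summarization and normalization the method was not given in the sources used here. Values as the authors deposited them were taken as log2. They lie between -2.27 and 7.85, have a median of 0.00 on every array and are centred per probe set, so no filter on low values was possible and whether a gene is expressed was not measured. The members and gene lists were chosen with earlier results of these data known.

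The 62 control probe sets were left out. The platform annotation gave 1 gene to 41091 probe sets, several to 1801 and none to 11721; symbols were updated through the gene identifier. A gene's value was the mean of its probe sets. Named were all members, up to 4 genes per list and comparison at 1.5-fold by size, and the 5 genes most like SMAD6 and SMAD7. The 16 comparisons are differences with no test, since 1 array per condition leaves no error, and the number of arrays limits the precision. Gene means and counts were checked on made-up values with known answers (Python 3.11.15, pandas 2.3.3, numpy 2.4.6). Alternatives covered other probe set summaries, scalings, references and fold limits.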

Additional observations from a re-analysis of the deposited data

How the results depend on the processing

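Of the alternatives, subtracting the mean of the central values of each array, taking the median of the probe sets, and using the mean of the untreated and BSA arrays as reference kept every count of members at 1.5-fold within 1.5 times. No called difference of a member changed sign under an alternative scaling, summary or reference. Of 801 single-gene values 89 moved by more than 0.166. With the probe set of largest SD for each gene, the counts were 3 for ethanol minus untreated, 3 for estradiol minus untreated, 5 for estradiol minus ethanol, 3 for estradiol minus BSA, 1 for E2-BSA minus BSA, 4 for estradiol minus E2-BSA, 1 for G15 minus untreated, 1 for G15 minus BSA, 5 for E2-BSA plus ICI minus E2-BSA, 3 for E2-BSA plus ICI minus BSA, 4 for E2-BSA plus G15 minus E2-BSA, 3 for E2-BSA plus G15 minus G15, 2 for E2-BSA plus G15 minus BSA and 1 between the combinations. This setting picks the probe set that varies most, which raises counts by its construction. The share of all genes apart was not computed under any alternative, so the counts in this section cannot be set beside it. Without probe sets of shared sequence (_s_at and _x_at) the count was 2 in estradiol minus untreated, estradiol minus BSA, estradiol minus E2-BSA, E2-BSA plus ICI minus E2-BSA and E2-BSA plus ICI minus BSA, and 1 in E2-BSA plus G15 minus G15, the added gene being SMAD9. SMAD9 was also added on E2-BSA plus G15 minus E2-BSA, at -0.63. For estradiol minus ethanol SKIL, at -0.49, was no longer among those called. Quantile normalization gave 0 for ethanol minus untreated and 1 for E2-BSA plus G15 minus G15, where SMAD7 stood at -0.59.

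At 2-fold the count was 1 for estradiol minus ethanol and 0 for estradiol minus untreated, estradiol minus BSA, estradiol minus E2-BSA and the comparisons of either combination with E2-BSA or BSA. At the looser fold limit that was planned it was 5 for ethanol minus untreated, 4 for estradiol minus untreated, estradiol minus E2-BSA and E2-BSA plus G15 minus G15, 3 for E2-BSA plus G15 minus BSA, 2 for E2-BSA plus ICI minus E2-BSA and minus BSA, and 1 for E2-BSA minus BSA and between the combinations. At neither fold limit was the share of all genes computed, so these counts do not show whether the members exceed it. No paired analysis was possible because each condition has 1 array. With 1 array per condition a difference between cultures cannot be told apart from the treatment.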
